A study of Mus musculus with 20 samples.

Results

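The core of the spliceosome was examined in CFU-E, the committed red cell progenitors of mouse bone marrow, through 52 protein-coding genes. They were taken by gene symbol: the Snrp genes of the small nuclear ribonucleoproteins (snRNPs), the numbered Lsm genes, the Sf3a and Sf3b genes, the numbered Prpf genes, and U2af1, U2af2, Sf1, Zrsr2, Luc7l2 and Ddx41. All 52 passed the filter for expressed genes, which asked for a value of 1 or more in 5 or more of the 20 libraries, among 10890 entries that did so of 37748 in the table. The choice went by symbol, and was made with earlier results of these data known. Snrpn, a close relative of Snrpb, was not analysed here.

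RNA was sequenced from sorted CFU-E of 4 groups of mice with 5 libraries each. Mx1-Cre Srsf2P95H/+ mice (called P95H) received phenylhydrazine (PHZ), Mx1-Cre mice received PHZ, P95H mice received saline (PBS) and Mx1-Cre mice received PBS. PHZ destroys red cells and so causes anaemia. On days 0 and 1 it was injected under the skin (30 mg/kg), and cells were sorted on day 4 as lineage-negative, c-Kit-high, CD105-positive cells. All 4 groups carry the Mx1-Cre transgene, in which the interferon-inducible Mx1 promoter drives Cre in blood-forming and other cells. P95H mice carry in addition 1 Srsf2 allele with the P95H change of this splicing factor, which is recurrent in myeloid neoplasms. How and when recombination was induced, and the ages of the mice, are not given in the sources used here. Library names end in a different number each, which was read as a separate mouse per library. On that reading p-values measure variation among these mice as well as technical variation.

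The spliceosome removes introns from pre-mRNA. The U1 snRNP binds the 5′ splice site, while Sf1, the U2af proteins and the U2 snRNP with its SF3a and SF3b complexes define the branch point and the 3′ splice site. The U4/U6.U5 tri-snRNP, which holds several PRPF proteins, then joins and is rearranged into the active enzyme. A ring of Sm proteins sits on the RNA of most of these particles, and a related LSm ring sits on U6 RNA. Mutations of SF3B1, U2AF1, ZRSR2, LUC7L2, PRPF8 and DDX41 occur in human myeloid neoplasms beside those of SRSF2.

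Values are the authors' normalised signal, which is TPM-like, so levels are per transcript length and can be set beside each other between genes. Library sums ran from 924763 to 1085047. The 8 markers of CFU-E and erythroid cells summed to between 1512 and 2057 in every library and none of them was at 0. After PHZ 2 of the 8 rose and 4 fell in P95H, and 2 rose and 2 fell in Mx1-Cre. Kit, the stem cell factor receptor used in the sort, averaged 51.9 ± 12.9 in P95H PHZ, against 87.7 ± 13.1 in P95H PBS, and 60.6 ± 5.72 in Mx1-Cre PHZ, against 108 ± 27.5 in Mx1-Cre PBS. Tfrc, the transferrin receptor, averaged 697 ± 18.5 in P95H PHZ, against 421 ± 84.2 in P95H PBS, and 682 ± 73.0 in Mx1-Cre PHZ, against 366 ± 37.7 in Mx1-Cre PBS (SD, n = 5 each). Kit fell and Tfrc rose in both genotypes, and their part in the PHZ results was not tested. Of 18 granulocyte and monocyte markers, 16 passed the filter, and none of the 18 was at 0 in every library of a group. Their sum was 162 to 607 in P95H PHZ, 153 to 1094 in Mx1-Cre PHZ, while PBS gave 574 to 2513 in P95H and 462 to 969.8 in Mx1-Cre. After PHZ, 16 of the 16 were called lower in P95H mice, with a median log2 fold change of −1.85. In Mx1-Cre mice 1 of the 16 was called lower, with a median of −0.92. Of all entries, 17.7% and 14.9% were called lower. The PHZ effect was called different between genotypes for 0 of the 16 and for 0 of all entries. In these bulk samples fewer cells of a type and less RNA per cell cannot be told apart. Srsf2 itself averaged 586 ± 20.2 in P95H mice given PHZ, against 685 ± 35.6 in Mx1-Cre mice given PHZ, and 623 ± 49.3 in P95H mice given PBS, against 679 ± 31.9 in Mx1-Cre mice given PBS (SD, n = 5 each). Gene-level values do not show the P95H change.

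The core spliceosome genes were abundant and steady. Their means over the 20 libraries had a median of 169, against 22.8 for all entries tested, and 48 of the 52 lay above that entry median. The median coefficient of variation over the 20 libraries was 8.29% for these genes, against 12.5% for all entries. Their variation was not compared with that of entries of similar level. Sf3b1, the branch-point-binding scaffold of SF3b, varied least (3.44%), and Lsm7, of the LSm ring, varied most (23.5%). Together the 52 genes held 1.04% of the library sum in P95H PHZ and 1.04% in Mx1-Cre PHZ, against 1.01% in P95H PBS and 0.978% in Mx1-Cre PBS.

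Levels lay apart for some particles and overlapped for others. The 7 Sm ring genes had means of 342 (Snrpd2) to 622 (Snrpf), and each of them lay above the highest LSm ring gene, Lsm4 at 217. Lsm1, which replaces Lsm8 in the cytoplasmic ring that takes part in mRNA decay, was the lowest of the LSm rings at 32.2, whereas Lsm8 had 154. The 3 SF3a genes spanned 128 to 143 and the 6 SF3b genes 184 (Sf3b5) to 268 (Sf3b3). Among 3′ splice site genes, U2af1, the small subunit that reads the AG, averaged 368, and its minor-spliceosome relative Zrsr2 averaged 22.6. The tri-snRNP PRPF genes ran from 47.9 (Prpf4) to 251 (Prpf8). Prpf19, the ubiquitin ligase that activates the spliceosome, averaged 295, and Prpf40b was lowest of all at 5.65. The U7 snRNP genes Lsm10 and Lsm11, which serve histone mRNA 3′ end formation, averaged 21.5 and 13.0. Single values of Sm genes are uncertain where reads could be shared with near-identical processed copies, which the sources used here do not describe.

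**Figure D1:**
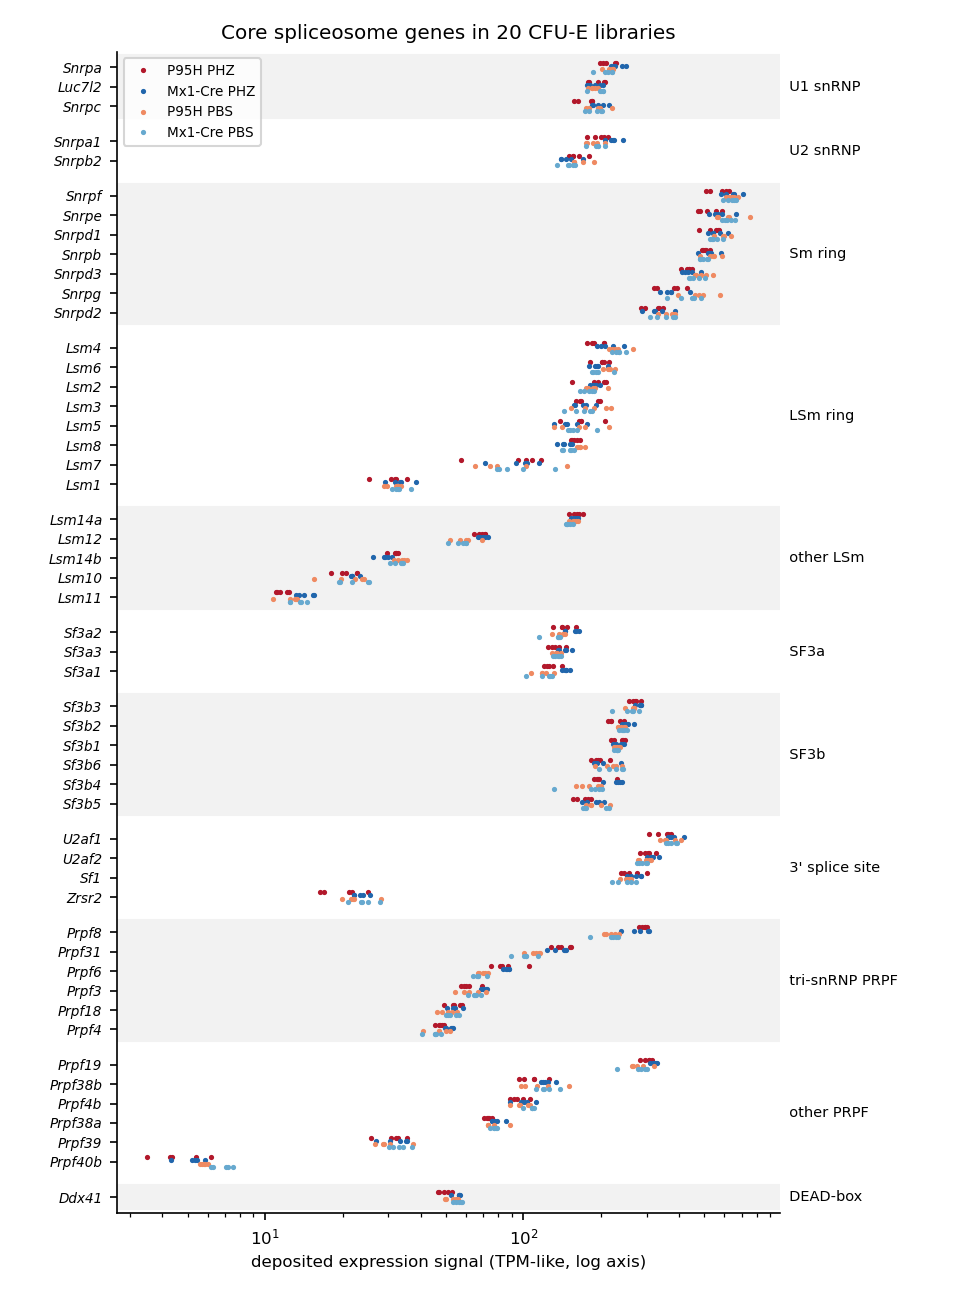
Signal of the core spliceosome genes in each library on a log axis, grouped by particle, with P95H PHZ, Mx1-Cre PHZ, P95H PBS and Mx1-Cre PBS as coloured points. Snrpf, of the Sm ring, lies highest (mean of 622) and Prpf40b lowest (5.65), and the spread between libraries is small beside the spread between genes.

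With PHZ, the tri-snRNP genes Prpf8, Prpf31 and Prpf6 rose in both genotypes. In P95H mice 5 of the 52 genes rose and 6 fell, and 41 passed in neither direction. In Mx1-Cre mice 13 rose and 2 fell, and 37 passed in neither direction. Among all entries tested, 30.2% were called in P95H (12.6% higher, 17.7% lower) and 31.9% in Mx1-Cre (17% higher, 14.9% lower). Both directions together, the shares of the spliceosome genes, 21.2% in P95H and 28.8% in Mx1-Cre, were near or under this background. In Mx1-Cre the directions differed, with 13 of 52 higher beside 17% of all entries, and 2 of 52 lower beside 14.9%. The median log2 fold change was −0.02 in P95H and 0.03 in Mx1-Cre, against −0.02 and −0.00 over all entries tested. Calls are from limma, with Benjamini-Hochberg adjustment over all entries at 0.05, and fold changes are on the log2(value + 1) scale. With the authors' library factor divided out, 12 rose and 2 fell in P95H, and 14 rose and 1 fell in Mx1-Cre. Among all entries, that setting called 2575 higher and 1117 lower in P95H, against 1371 and 1923 with the deposited scaling.

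The 5 genes that rose in P95H, among them Prpf8, Prpf31, Prpf6 and Lsm12, also rose in Mx1-Cre, where they are 38.5% of the 13. No gene fell in both genotypes and none was called in opposite directions. The PHZ comparisons of the genotypes share no libraries, and across the 52 genes their log2 fold changes had a Pearson correlation of 0.84 and a Spearman correlation of 0.73. This is a description across genes, which are not independent.

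**Figure D2:**
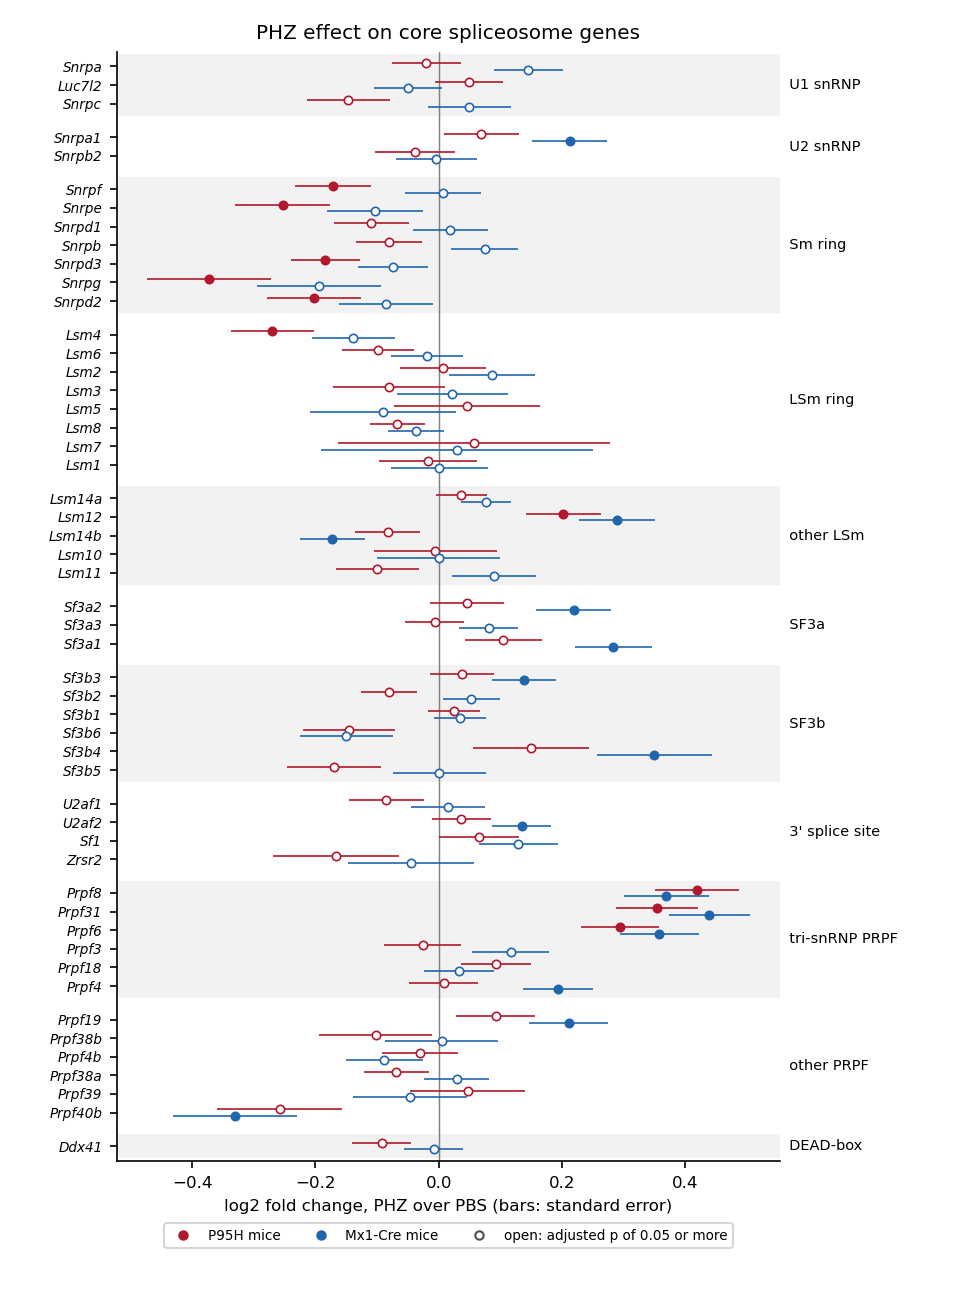
Log2 fold change of each gene shown, PHZ over PBS, in P95H and in Mx1-Cre mice, with its standard error (limma, n = 5 libraries per group); filled points have an adjusted p under 0.05. Prpf8, Prpf31, Prpf6 and Lsm12 are filled on the right in both genotypes, and 5 Sm ring genes are filled on the left in P95H.

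Of the 6 PRPF genes of the tri-snRNP, 3 rose in P95H and 4 in Mx1-Cre, with none lower. Of all entries, 12.6% rose in P95H and 17% in Mx1-Cre. Prpf8, the largest protein of the spliceosome, which holds its catalytic RNA centre, had 294, 296, 300.2, 281 and 288 in P95H PHZ, against 208, 226, 234, 218 and 205 in P95H PBS. In Mx1-Cre it had 269, 303, 305, 282 and 239 with PHZ, against 223, 232, 228, 181 and 218 with PBS. Every PHZ library lay above every PBS library in both genotypes, and Mx1-Cre PBS 4 stood low. The log2 fold change was 0.42 in P95H (SE 0.0684, adjusted p = 9.26e-05) and 0.37 in Mx1-Cre (SE 0.0684, adjusted p = 0.000358).

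Prpf31, which ties U4/U6 to U5 and is mutated in human retinitis pigmentosa, had 151, 152, 136, 139.7 and 127 in P95H PHZ, against 112, 100.4, 114, 116 and 109 in P95H PBS. In Mx1-Cre it had 123, 133, 145, 143 and 147 with PHZ, against 100.4, 102, 102, 89.5 and 114 with PBS. The groups did not overlap in either genotype. The log2 fold change was 0.35 in P95H (SE 0.066, adjusted p = 0.000357) and 0.44 in Mx1-Cre (SE 0.066, adjusted p = 4.29e-05).

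Prpf6, another bridge between U5 and U4/U6, had 105, 81.2, 87.0, 74.6 and 82.8 in P95H PHZ, against 66.8, 67.1, 71.1, 69.8 and 73.1 in P95H PBS. In Mx1-Cre it had 85.2, 83.6, 88.2, 88.2 and 86.0 with PHZ, against 65.9, 67, 66.8, 63.7 and 72.1 with PBS. The groups again did not overlap, and P95H PHZ 1 was the highest library. Its log2 fold change was 0.29 in P95H (adjusted p = 0.0014) and 0.36 in Mx1-Cre (adjusted p = 0.000244). Prpf4, a U4/U6 protein, rose in Mx1-Cre (0.19, adjusted p = 0.0125), but lost the call with the granulocyte and monocyte marker mean as a covariate (0.16, adjusted p = 0.077). In P95H its log2 fold change was 0.01 (adjusted p = 0.933). Prpf3, also of U4/U6, and Prpf18, a second-step factor, passed in neither genotype (log2 fold changes of −0.03 to 0.12).

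The calls of Prpf8, Prpf31 and Prpf6 held in all 32 alternative settings in both genotypes. Of the PRPF genes outside the tri-snRNP, Prpf40b fell in Mx1-Cre (−0.33, adjusted p = 0.0157), with 5.22, 5.86, 4.30, 5.35 and 5.44 after PHZ, against 7.04, 6.30, 6.16, 7.47 and 7.19 after PBS. Every PHZ library was below every PBS library, at levels where the pseudocount reduces the fold change. Without Mx1-Cre PHZ 3 its adjusted p was 0.0563. In P95H its value was −0.26 (adjusted p = 0.0566). Prpf19 rose in Mx1-Cre (0.21, adjusted p = 0.0155), and without Mx1-Cre PBS 4 its adjusted p was 0.0523. Prpf4b, Prpf38a, Prpf38b and Prpf39 passed in neither genotype.

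Promoters are shown for Prpf8 and Prpf31, which rose with PHZ in both genotypes, and for Snrpg and Snrpe of the Sm ring, which fell with PHZ in P95H. Each runs from 250 bases before to 50 after the RefSeq start, on the gene's strand (GRCm38.p6): Prpf8 chr11:75486527-75486826 (+), Prpf31 chr7:3629735-3630034 (+), Snrpg chr6:86371290-86371589 (+) and Snrpe chr1:133610231-133610530 (−). Capitals mark CCGGAAG (an ETS-type motif) and CCAAT (the NF-Y box), on either strand.
Prpf8: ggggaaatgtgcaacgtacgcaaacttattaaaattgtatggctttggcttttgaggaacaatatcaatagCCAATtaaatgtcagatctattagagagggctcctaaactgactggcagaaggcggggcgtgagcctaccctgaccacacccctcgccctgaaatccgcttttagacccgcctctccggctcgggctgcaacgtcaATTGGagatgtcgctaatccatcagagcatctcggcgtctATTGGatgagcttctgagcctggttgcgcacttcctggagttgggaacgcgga
Prpf31: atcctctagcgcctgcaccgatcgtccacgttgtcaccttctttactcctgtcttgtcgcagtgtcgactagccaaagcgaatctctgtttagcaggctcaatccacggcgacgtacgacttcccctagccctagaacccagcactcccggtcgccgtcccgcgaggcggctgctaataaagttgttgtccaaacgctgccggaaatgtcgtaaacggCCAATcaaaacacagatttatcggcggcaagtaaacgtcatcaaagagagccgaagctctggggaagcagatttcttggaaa
Snrpg: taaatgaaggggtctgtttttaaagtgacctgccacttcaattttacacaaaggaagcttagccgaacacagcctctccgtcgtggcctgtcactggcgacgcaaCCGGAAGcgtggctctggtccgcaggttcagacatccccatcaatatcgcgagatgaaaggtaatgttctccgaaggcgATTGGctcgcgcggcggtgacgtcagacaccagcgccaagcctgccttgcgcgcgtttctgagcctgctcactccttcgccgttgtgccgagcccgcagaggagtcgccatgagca
Snrpe: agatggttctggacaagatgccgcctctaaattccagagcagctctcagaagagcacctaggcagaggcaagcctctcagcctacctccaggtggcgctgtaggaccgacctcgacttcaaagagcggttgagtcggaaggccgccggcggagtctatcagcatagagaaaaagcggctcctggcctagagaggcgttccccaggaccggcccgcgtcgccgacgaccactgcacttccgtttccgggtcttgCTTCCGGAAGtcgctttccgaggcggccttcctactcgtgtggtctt
CCAAT was found in Prpf8, Prpf31 and Snrpg, and CCGGAAG in Snrpg and Snrpe. In Snrpe the motif and its reverse complement overlap. RefSeq promoters were matched for 42 of the 52 genes (50 promoters). Of these, 32% held CCGGAAG and 48% CCAAT, against 8.86% and 37.4% of all 32851 RefSeq promoters of that length. The other 6 motifs searched on both strands were GGGCGG (60% against 35.7%), the NRF1 motif (24% against 4.6%), CACGTG (12% against 7.15%), AAGATGGC (8% against 2.75%), the erythroid GATA-type AGATAA (8% against 11.2%) and TATAAA (4% against 13.6%). These counts describe letters in a window and were not tested.

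**Figure D3:**
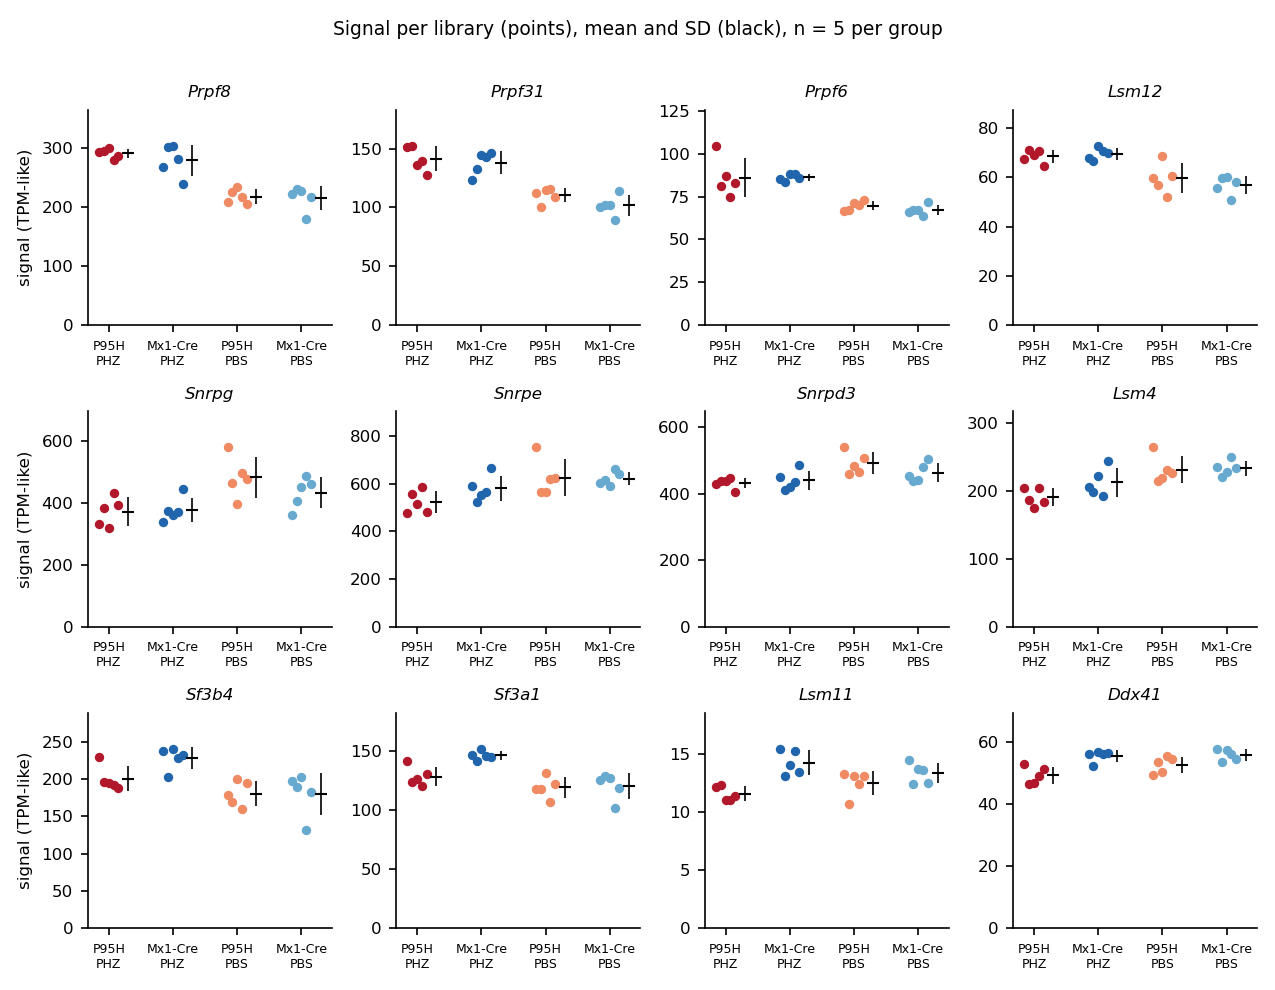
Signal in each library of 12 genes, with P95H PHZ, Mx1-Cre PHZ, P95H PBS and Mx1-Cre PBS from left to right in each panel; black marks are the mean and SD of 5 libraries, and axes start at 0. Prpf8, Prpf31, Prpf6 and Lsm12 stand higher in both PHZ groups, and Snrpg and Lsm4 stand lower in P95H PHZ than in P95H PBS.

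In Mx1-Cre 1 of 2 U2 snRNP genes, 2 of 3 SF3a genes and 2 of 6 SF3b genes rose with PHZ, beside 17% of all entries. In P95H none of them passed, beside 30.2% of all entries. Sf3b4, an SF3b subunit that contacts RNA near the branch point, had 237, 203, 240.3, 227 and 232 in Mx1-Cre PHZ, against 196, 189, 202, 132 and 182 in Mx1-Cre PBS. The groups did not overlap, though the lowest PHZ and the highest PBS library nearly met and Mx1-Cre PBS 4 was far below the rest. Its log2 fold change was 0.35 (SE 0.0937, adjusted p = 0.00717). Sf3a1, which also binds U1 RNA, had 146, 141, 152, 146 and 145 in Mx1-Cre PHZ, against 125, 129, 127, 102 and 118 in Mx1-Cre PBS, without overlap (0.28, SE 0.0624, adjusted p = 0.00173). Sf3a2 (0.22, adjusted p = 0.0088) and the U2 protein Snrpa1 (0.21, adjusted p = 0.0108) rose likewise. Sf3b3 passed narrowly (0.14, adjusted p = 0.0463), and lost its call in 20 of 32 alternative settings, among them leaving out Mx1-Cre PBS 4 (adjusted p = 0.159). Sf3a3, Sf3b1, Sf3b2, Sf3b5, Sf3b6 and the U2 protein Snrpb2 passed in neither genotype.

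In P95H the same genes had log2 fold changes of 0.15 (Sf3b4, adjusted p = 0.24), 0.10 (Sf3a1, adjusted p = 0.213), 0.05 (Sf3a2, adjusted p = 0.6), 0.07 (Snrpa1, adjusted p = 0.421) and 0.04 (Sf3b3, adjusted p = 0.616). The test of the difference between genotypes passed for none of them (interaction −0.20 to −0.10, adjusted p = 0.798 for each). Sf3b1 barely moved, with 242, 224, 239.7, 219 and 247 in P95H PHZ, against 236, 225, 229, 227 and 234 in P95H PBS. In Mx1-Cre it had 245, 228, 222, 239 and 240.3 with PHZ, against 229, 224, 232, 231 and 229 with PBS. Its log2 fold changes were 0.02 (SE 0.0424) and 0.03 (SE 0.0424), both smaller than their standard error.

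Of the 4 genes for 3′ splice site recognition, U2af2, the large subunit that binds the polypyrimidine tract, rose in Mx1-Cre (0.13, SE 0.0479, adjusted p = 0.036). It lost the call in 8 of 32 settings, among them leaving out Mx1-Cre PBS 4 (adjusted p = 0.0936). In P95H it had a log2 fold change of 0.04 (adjusted p = 0.604). U2af1 (−0.09 in P95H, 0.02 in Mx1-Cre), the branch point protein Sf1 (0.07 and 0.13) and Zrsr2 (−0.17 and −0.04) did not pass. The U1 genes did not pass either. Of them Snrpa, which binds U1 RNA, came nearest in Mx1-Cre (0.15, adjusted p = 0.0526), while Snrpc and Luc7l2 had adjusted p of 0.106 or more in both genotypes. Ddx41, a DEAD-box helicase, had −0.09 in P95H (adjusted p = 0.152) and −0.01 in Mx1-Cre (adjusted p = 0.923).

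With PHZ, 5 of the 7 Sm ring genes fell in P95H (median −0.18), beside 17.7% of all entries. In Mx1-Cre 0 of the 7 passed (median −0.07), beside 31.9% of all entries. There limma gave 0 of the 7 at an unadjusted p under 0.05, beside 41.7% of all entries. The difference between genotypes passed for none of the 7 (interaction −0.18 to −0.11, adjusted p = 0.798 to 0.811). Snrpg had 330.2, 383, 319, 431 and 394 in P95H PHZ, against 579, 462, 397, 495 and 476 in P95H PBS, with overlap between the groups. Its log2 fold change was −0.37 (SE 0.1, adjusted p = 0.00735), against −0.19 in Mx1-Cre (adjusted p = 0.149). Snrpe had 476, 556, 514, 586 and 483 in P95H PHZ, against 753, 564, 566, 619.5 and 624 in P95H PBS (−0.25, SE 0.0776, adjusted p = 0.0169). The groups of Snrpe also overlapped, and P95H PBS 1 was its highest library. Snrpd3 had 431, 438, 439, 449 and 407 in P95H PHZ, against 540.2, 461, 485, 467 and 509 in P95H PBS (−0.18, SE 0.0561, adjusted p = 0.0163). For Snrpd3 every PHZ library was below every PBS library. Snrpd2 (−0.20, adjusted p = 0.0484) and Snrpf (−0.17, adjusted p = 0.038) passed narrowly, and Snrpd1 (−0.11) and Snrpb (−0.08) did not pass.

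Of the 8 LSm ring genes 1 fell in P95H, beside 17.7% of all entries, and 0 passed in Mx1-Cre, beside 31.9%. In Mx1-Cre limma gave 0 of the 8 at an unadjusted p under 0.05, beside 41.7% of all entries. Lsm4 had 205, 187, 176, 205 and 184 in P95H PHZ, against 265, 215, 219, 232 and 226 in P95H PBS. The groups did not overlap and the log2 fold change was −0.27 (SE 0.0671, adjusted p = 0.00413), against −0.14 in Mx1-Cre (adjusted p = 0.123). Over all 52 genes, groups did not overlap for 6 in P95H (4 higher, 2 lower) and for 12 in Mx1-Cre (11 higher, 1 lower). Among all entries tested the groups did not overlap for 17.6% in P95H (7.59% higher, 10% lower) and 22.4% in Mx1-Cre (12.6% higher, 9.82% lower).

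Several calls of these Sm and LSm genes in P95H were near the threshold. P95H PBS 1, which had the largest authors' factor of all libraries (1.1), was the highest P95H PBS library for Snrpg, Snrpe, Snrpd3 and Lsm4. Without it 2 of the 6 calls were left, and those lost had log2 fold changes of −0.19 (Snrpd2), −0.18 (Snrpe), −0.15 (Snrpf) and −0.15 (Snrpd3). Over all entries 1726 were called lower without this library, against 1923 with all libraries. Without P95H PBS 4 and 5, whose granulocyte marker sums were highest (1859 and 2513), 3 of the 6 calls were left. Over all entries 1263 were then called lower. The genes that lost the call had −0.25 (Snrpe), −0.20 (Snrpd2) and −0.16 (Snrpf), about as large as with all libraries. With the authors' factor divided out Snrpg and Lsm4 fell, and the others had −0.15 (Snrpe), −0.10 (Snrpd2), −0.08 (Snrpd3) and −0.07 (Snrpf). With the granulocyte and monocyte marker mean as a covariate 0 of 52 passed as lower. The 6 genes had log2 fold changes from −0.29 (Snrpg) to −0.12 (Snrpd3) and adjusted p from 0.184 (Lsm4) to 0.519 (Snrpd2). Calls fell over the whole table with this covariate, to 450 higher and 561 lower of 10890 entries, against 1371 and 1923 without it. The part of granulocytes and monocytes in the result was otherwise not tested.

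Gene groups were also set against each other within each library, where a factor common to the library nearly cancels. The mean log2(value + 1) of the 6 tri-snRNP PRPF genes minus that of the 7 Sm ring genes was −2.52 to −2.18 in P95H PHZ (mean −2.32 ± 0.129), against −2.85 to −2.54 in P95H PBS (mean −2.70 ± 0.121). In Mx1-Cre it was −2.57 to −2.26 with PHZ (mean −2.35 ± 0.125), against −2.85 to −2.57 with PBS (mean −2.66 ± 0.114; SD, n = 5 each). The groups did not overlap in P95H and met at the edge in Mx1-Cre, with Mx1-Cre PHZ 5 the lowest PHZ library. Since the groups of genes were set apart with their values known, no test is given.

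**Figure D4:**
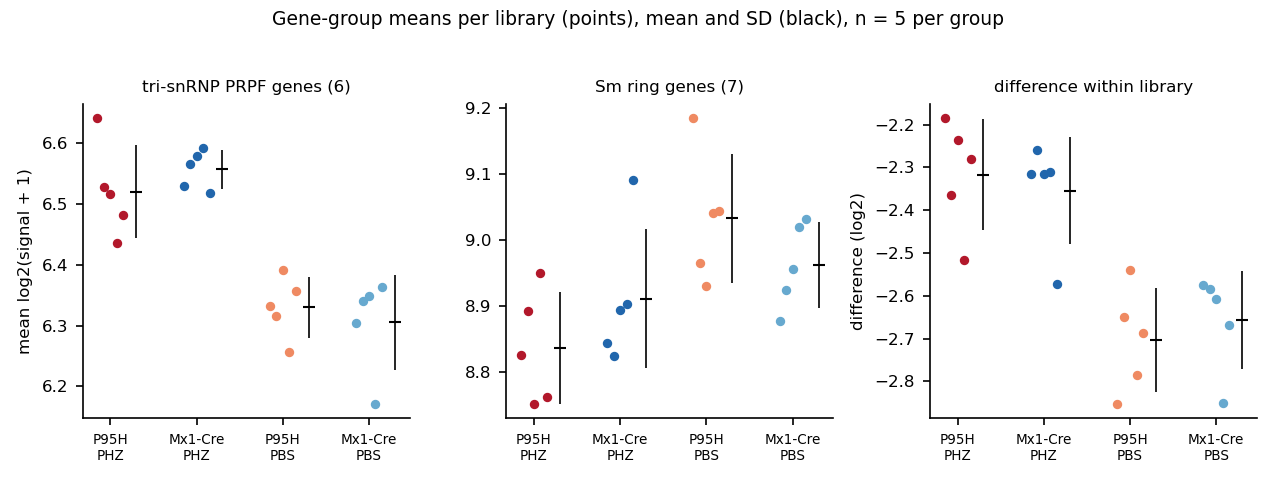
Mean log2(signal + 1) per library of the 6 tri-snRNP PRPF genes and the 7 Sm ring genes, and their difference within each library, with P95H PHZ, Mx1-Cre PHZ, P95H PBS and Mx1-Cre PBS from left to right; black marks are the mean and SD of 5 libraries. The difference lies at −2.52 to −2.18 in P95H PHZ, against −2.85 to −2.54 in P95H PBS.

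Among the other LSm genes, Lsm12, an RNA-binding adaptor, had 67.4, 71.0, 69.0, 70.9 and 64.5 in P95H PHZ, against 59.7, 57.0, 68.8, 52.2 and 60.7 in P95H PBS. In Mx1-Cre it had 67.9, 66.6, 72.9, 70.9 and 69.9 with PHZ, against 55.7, 59.6, 60.2, 50.8 and 58.1 with PBS. The Mx1-Cre groups did not overlap, and in P95H one PBS library, replicate 3, reached the PHZ range. The log2 fold change was 0.20 in P95H (adjusted p = 0.0155) and 0.29 in Mx1-Cre (adjusted p = 0.00122), and the call in P95H was lost in 3 settings. These were leaving out P95H PBS 4 (0.16, adjusted p = 0.0542), leaving out P95H PBS 4 and 5 (0.15, adjusted p = 0.117) and the granulocyte and monocyte marker covariate (0.17, adjusted p = 0.264). Lsm14b, a P-body protein, fell in Mx1-Cre (−0.17, adjusted p = 0.0152), with an adjusted p of 0.0522 without Mx1-Cre PHZ 1. In P95H it had −0.08 (adjusted p = 0.242). Lsm14a, Lsm10 and Lsm11 passed in neither genotype.

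Whether the PHZ response differed between genotypes was tested by the interaction. In limma 0 of 52 genes passed, as did 0 of all 10890 entries (0%), and 2 of the 52 had an unadjusted p under 0.05, as did 5.3% of all entries. These were Prpf4 (−0.19, SE 0.0801, unadjusted p = 0.0307) and Snrpa (−0.17, SE 0.0794, unadjusted p = 0.0495), both with an adjusted p of 0.798. The PHZ effect in P95H was below that in Mx1-Cre for 42 of the 52 genes (median difference −0.10). Among all entries it was below for 6283 of 10890 (median −0.03). Of the 52 genes, 38 were on this side with TMM factors, 32 with quantile normalization (median −0.02) and 35 on removing the authors' factor. All 7 Sm ring genes were on this side under each of these scalings. The median over all entries was then −0.00, 0.00 and 0.03.

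Between the genotypes given PBS, no core spliceosome gene passed the test. In P95H PBS against Mx1-Cre PBS, limma called 0 of the 52 genes, while 1.48% of all entries passed. Unadjusted p lay under 0.05 for 3 of them, and for 14.1% of all entries. The 3 were the LSm ring genes Lsm8 (0.15, adjusted p = 0.107) and Lsm6 (0.13, adjusted p = 0.297) and the U2 protein Snrpb2 (0.14, adjusted p = 0.344). Lsm8 had 165, 172, 163, 165 and 161 in P95H PBS, against 142, 141, 153, 151 and 158 in Mx1-Cre PBS. Every P95H library was above every control library for Lsm8, and every P95H library was below for Prpf40b (−0.21, adjusted p = 0.363), which makes 2 of the 52 without overlap, against 3.67% of all entries (0.891% higher, 2.78% lower). The kinase Prpf4b had −0.12 (adjusted p = 0.394). The median over the 52 genes was 0.01, against −0.03 over all entries.

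After PHZ, P95H CFU-E had less of 2 of the 52 genes than Mx1-Cre CFU-E and more of none. Among all entries tested, 5.47% were called (1.1% higher, 4.37% lower). Lsm11 had 12.1, 12.4, 11, 11.1 and 11.4 in P95H PHZ, against 15.5, 13.1, 14.1, 15.3 and 13.5 in Mx1-Cre PHZ. The groups did not overlap, and the log2 fold change was −0.28 (SE 0.0675, adjusted p = 0.0189). Ddx41 had 53.0, 46.6, 47.0, 49.1 and 51.2 in P95H PHZ, against 56.1, 52.2, 56.9, 56.3 and 56.4 in Mx1-Cre PHZ (−0.17, SE 0.0479, adjusted p = 0.0423). The Ddx41 groups overlapped through P95H PHZ 1 and Mx1-Cre PHZ 2. Both calls were narrow. Lsm11 lost its call without P95H PHZ 3 (adjusted p = 0.0561), Mx1-Cre PHZ 1 (0.056) or Mx1-Cre PHZ 4 (0.055), and Ddx41 in 13 of 32 settings. Groups did not overlap for 4 of the 52 genes, all lower in P95H, against 6.95% of all entries (1.57% higher, 5.38% lower). They were Lsm11, Sf3a1, Prpf4 and Prpf38a.

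The next genes were Sf3b2, which anchors SF3b to the branch region (−0.15, adjusted p = 0.0508), Prpf3 (−0.20, adjusted p = 0.0651), Sf3a1 (−0.19, adjusted p = 0.0783) and Snrpa1 (−0.18, adjusted p = 0.0814). Sf3a1 had 141, 124, 126, 120.2 and 130.2 in P95H PHZ, against 146, 141, 152, 146 and 145 in Mx1-Cre PHZ. In all, 40 of the 52 were lower in P95H, with a median of −0.06. Among all entries 7358 of 10890 were lower, with a median of −0.05. The whole table leaned the same way, by an amount that depended on the scaling. With TMM factors 27 of the 52 were lower, with quantile normalization 24 and on removing the authors' factor 26, and both calls were lost under each of the 3. TMM factors also changed the split over all entries, to 150 higher and 190 lower, against 120 and 476 with the deposited scaling.

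**Figure D5:**
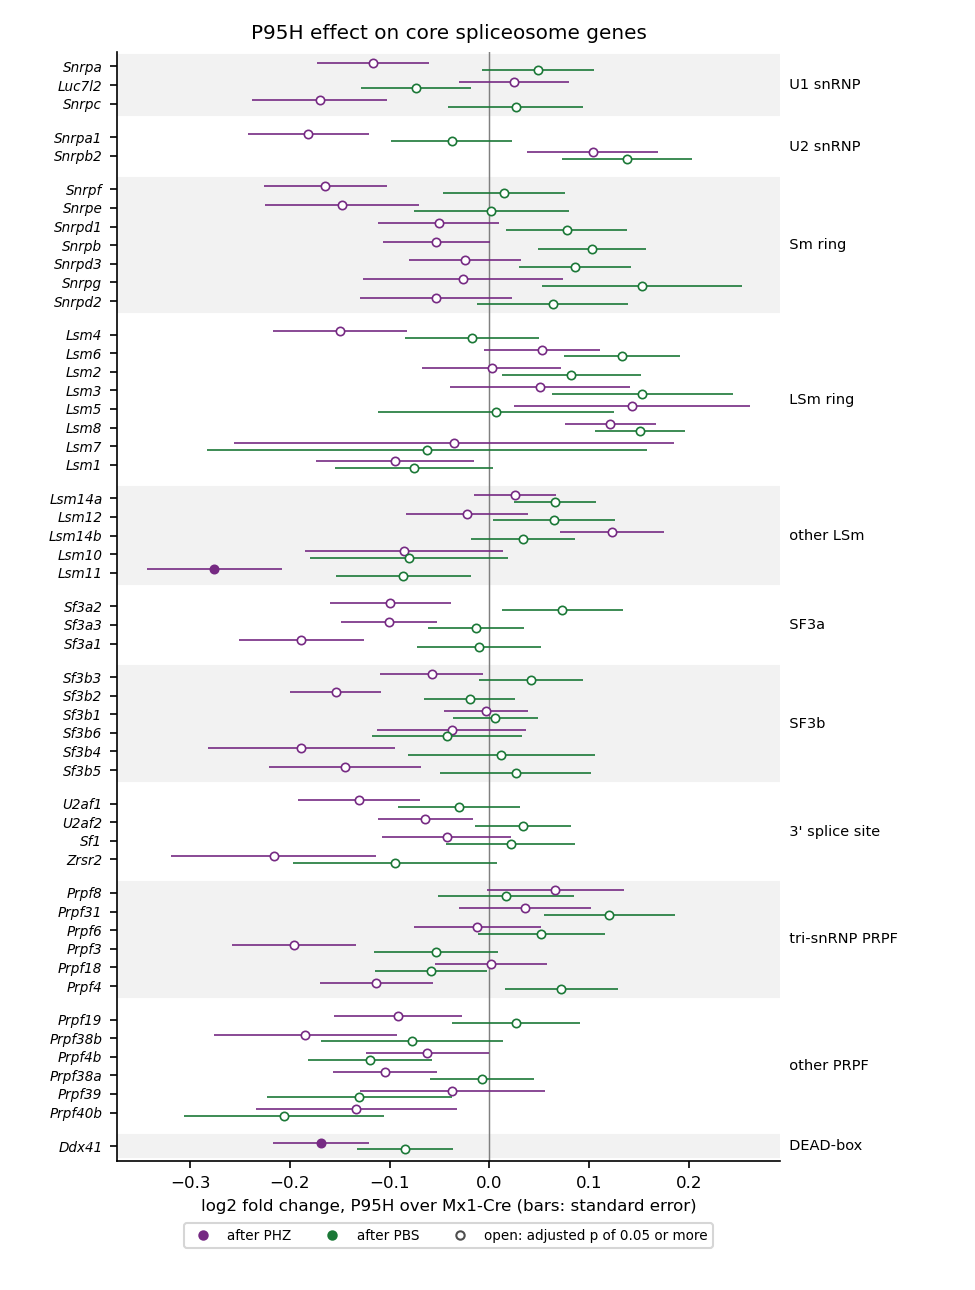
Log2 fold change of each gene shown, P95H over Mx1-Cre, after PHZ and after PBS, with its standard error (limma, n = 5 libraries per group); filled points have an adjusted p under 0.05. Lsm11 and Ddx41 after PHZ are the filled points, and no gene after PBS is filled.

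Of the 8 genes singled out as mutated in human myeloid neoplasms or working beside them, 1 passed between genotypes, Ddx41 after PHZ. Of all entries, 5.47% passed after PHZ and 1.48% after PBS. The Ddx41 call was lost in 13 of 32 settings. Sf3b1 differed by −0.00 after PHZ (SE 0.0424) and 0.01 after PBS (SE 0.0424). U2af1 averaged 347 ± 27.4 in P95H PHZ, against 379.6 ± 21.9 in Mx1-Cre PHZ (−0.13, adjusted p = 0.215), and 368 ± 28.4 in P95H PBS, against 375 ± 15.9 in Mx1-Cre PBS (−0.03, adjusted p = 0.865). Zrsr2 averaged 20.2 ± 3.64 in P95H PHZ, against 23.3 ± 1.42 in Mx1-Cre PHZ (−0.22, SE 0.103, adjusted p = 0.226). Luc7l2 (0.02 after PHZ, −0.07 after PBS), Prpf8 (0.07 and 0.02), U2af2 (−0.06 and 0.03) and Sf1 (−0.04 and 0.02) did not pass in either comparison. Ddx41 after PBS had −0.08 (adjusted p = 0.442). A p above the threshold does not show equal levels.

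Other splicing genes came from a separate list of snRNP, helicase, Prp19-complex, minor-spliceosome and snRNP-assembly genes. Of 82 tested, 11 rose and 8 fell with PHZ in P95H (23.2%), and 23 rose and 1 fell in Mx1-Cre (29.3%). Of all entries, 12.6% rose and 17.7% fell in P95H, and 17% rose and 14.9% fell in Mx1-Cre. Both directions together, the 82 genes were under the 30.2% and 31.9% of all entries. In P95H the largest rises were Rnpc3, a minor-spliceosome protein (0.38, adjusted p = 0.0133), Snrnp200, the helicase that unwinds U4/U6 (0.30, adjusted p = 0.00106), and Txnl4a, a U5 protein (0.29, adjusted p = 0.0204). The largest falls were Pdcd7 (−0.37) and Scnm1 (−0.28), both of the minor spliceosome, and Mepce, which caps 7SK RNA (−0.25). In Mx1-Cre, 6 of 12 tri-snRNP partners, 8 of 21 genes of SMN and snRNP assembly, 6 of 24 of the Prp19 complex and helicases, 3 of 15 associated with U1 and U2 and 0 of 10 of the minor spliceosome rose. The largest rises were those of Smn1 (0.36), Gemin5 (0.35) and Gemin4 (0.35), all of the assembly class, and Zmat5 of the minor spliceosome fell (−0.28). Between genotypes 0 of the 82 passed after PBS, beside 1.48% of all entries. In limma 7 of the 82 had an unadjusted p under 0.05 there, beside 14.1% of all entries. Lower in P95H after PHZ were 2 of the 82, beside 4.37% of all entries. They were Scnm1 (−0.32, adjusted p = 0.0104) and Ddx46, a U2-associated helicase (−0.22, adjusted p = 0.00453).

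Over the 52 genes the Spearman correlation of the PHZ log2 fold change with the median annotated transcript length was 0.36 in P95H and 0.38 in Mx1-Cre, against 0.22 and 0.14 over the 10012 entries tested that had a length. It is a description across genes. Prpf8 has 42 exons in its longest annotated transcript and a median length of 7249 bases, and Snrpe has 4 exons and 503 bases. For entries under 1000 bases the median PHZ log2 fold change was −0.08 in P95H and −0.04 in Mx1-Cre, and for those of 4000 bases or more 0.07 and 0.05. The part of transcript length in the results was not tested.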

How the data were processed

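Gene expression of sorted mouse CFU-E was measured in 20 libraries, 5 in each of 4 groups named by the labels' genotype and treatment. Per the labels' protocols, libraries were paired-end (150 bp) with a minimum depth that the labels state for all alike. TopHat2 2.0.8b, TopHat, RSEM 1.2.4 and Bowtie, and as builds GRCm38, mm10, GRCh37 and hg19, are listed per the submitters' processing notes, which give them no order and no role. The deposited values form 1 table of normalised signal per gene. In each library every value was a whole multiple of 0.01 times a single factor (100% of values, within a tolerance of 0.01 of a step), the form of TPM scaled by 1 factor per library. The factors ran from 0.94 to 1.1, and how they were obtained, and the annotation release, are not stated in any source used here. Without read counts in the table, depth is unknown and no interval or floor is given.

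Entries that reached 1 in 5 or more libraries were analysed as log2(value + 1). This understates changes of low genes. Symbols and positions came from GENCODE vM21, and promoters from RefSeq (GRCm38.p6). A mean for each group was fitted to the 20 libraries together by limma 3.58.1 (R 4.3.3), with trended and robust moderation, 5 contrasts and two-sided tests, adjusted by Benjamini-Hochberg over 10890 entries at 0.05. The fit was tested on simulated data. TMM factors were computed from the values with 30% of log ratios and 5% of levels trimmed. Figures used Python 3.11.15, numpy 2.4.6, pandas 2.3.3 and matplotlib 3.10.9. Splicing was not analysed, since values are per gene.

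The genes, the lists and the tests were chosen with earlier results of these data known. Named are the called genes, the 5 with the smallest p where fewer than 6 passed, the myeloid disease genes in every contrast, the highest and lowest gene of each of 11 roles, and up to 3 other splicing genes per direction. 1 gene that this rule names is not reported here by name, though counts and medians over the 52 genes hold it. Members of a role named beyond this were chosen after their values were seen. Alternatives were TMM factors, quantile normalization, the authors' factor divided out, pseudocounts of 0.1 and 5, no filter, a filter at 5, the compared groups alone, no trend and no robust moderation, a replicate block, the granulocyte and monocyte marker mean as a covariate, leaving out P95H PBS 4 and 5, and leaving out each library.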

Additional observations from a re-analysis of the deposited data

Results flagged for a closer look

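In groups of 5, the highest or lowest library was set against the others by Dixon's test, for 52 genes in 4 groups (208 tests). It flagged 14, and chance flags about 1 in 20 groups. No explanation is weighed.

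Mx1-Cre PBS 4 stood apart most often. It was the lowest of its group for Prpf8 (181, the next library at 218), Sf3a2 (115, the next at 136) and Sf3b4 (132, the next at 182), and the highest for Lsm5 (193, the next at 162). The first 3 of these genes rose with PHZ in Mx1-Cre, and they kept their calls without this library. Mx1-Cre PBS 5 was lowest for Luc7l2 (177) and Prpf4b (99.8) and highest for Lsm6 (224).

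After PHZ, Mx1-Cre PHZ 4 was highest for Lsm10 (23.3) and lowest for Sf3b3 (271), and Mx1-Cre PHZ 2 was lowest for Ddx41 (52.2). In P95H mice, P95H PHZ 1 was highest for Sf3b4 (229), P95H PBS 1 was highest for Zrsr2 (28.1) and Prpf38a (88.8), and P95H PBS 2 was lowest for Sf3b3 (248).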

How the results depend on the processing

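For the genes named, 2451 comparisons with 32 alternatives gave 2332 with the same direction and side of the threshold, 99 that lost a call, 20 that gained one and 0 reversed. With PHZ in Mx1-Cre, 13 genes rose (10 to 14 over the leave-one-out fits) and 2 fell (1 to 4), and 1 fell with the authors' factor divided out or the marker covariate. With PHZ in P95H, 5 rose (4 to 5) and 6 fell (2 to 7). With the factor divided out 12 rose and 2 fell, with the covariate 0 fell, and without P95H PBS 4 and 5 there were 3 that fell. For P95H under PBS, 1 was higher with TMM factors, beside 51 of all entries, against 39 in the main fit. For P95H under PHZ, 2 were lower (0 to 6), beside 476 of all entries (249 to 556). The count of lower genes was 0 with TMM factors, quantile normalization or the factor divided out, and 1 with the compared groups alone. Over all entries these settings called 190, 163, 145 and 258 lower, in that order. TMM factors and quantile normalization each gave 1 higher gene, beside 150 and 129 of all entries. The cause was not tested. The interaction gave 0 under every alternative.

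No pairing of the libraries by replicate number was seen, though 5 pairs per comparison are too few to exclude it. Same-numbered libraries had correlations of their deviations from −0.306 to 0.27, and at most 2 of 5 libraries matched best with their own number. A replicate block gave 5 lower genes for P95H under PHZ, and 0 where the main fit had 0. Over all entries it called 479 lower for P95H under PHZ, against 476 in the main fit. Groups were of 5 libraries, read as separate mice. The file gives no depth, so precision rests on the spread between libraries.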
